A study of Mus musculus with 20 samples.

Results

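The genes that mark T lymphocytes and natural killer (NK) cells were followed in the colon of mice that received a Chinese herbal formula, Pien Tze Huang (PZH), with and without chemically induced colitis-associated cancer. There were 39 such genes of 32991 summed, chosen by symbol for their known roles with earlier results of these data known, and they were read in 6 role groups. Of the 39, 10 encode the T cell receptor complex and its proximal signalling, 4 pan-T adhesion and costimulation molecules, 6 helper and 2 regulatory T cell genes, 11 cytotoxic and NK genes, and 6 genes of naive, memory and tissue-homing cells. RNA-seq was made of the colon of 20 C57BL/6 male mice in 4 groups of 5, with 1 library per mouse. Control mice received double distilled water by gavage for 91 days, and PZH mice received PZH at 250 mg/kg per day for the same time. AOM/DSS mice had the water gavage and the model, which was azoxymethane (AOM, a colon carcinogen) at 12.5 mg/kg into the peritoneum on the first day, followed after 7 days by 2% dextran sodium sulfate (DSS, which injures the colon lining) in the drinking water for 5 days and normal water for 2 weeks, in 4 cycles. PZH + AOM/DSS mice had the model and the PZH gavage. The labels name colon and do not say which stretch or layers of it were taken.

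A T cell recognises antigen through its receptor, whose chains sit with the CD3 proteins in the membrane and pass the signal to the kinases Lck and Zap70. Helper T cells carry CD4 and direct other immune cells, regulatory T cells need the transcription factor Foxp3 and restrain immune responses, and cytotoxic T cells, which carry CD8, and NK cells kill target cells with granzymes and perforin. In the colon these cells lie between the epithelial cells, in the lamina propria beneath and in small lymphoid follicles, and the last are made mostly of B cells.

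Levels are given in FPKM, fragments per kilobase of transcript per 1000000 fragments, summed over the Ensembl transcripts of a gene. Values of a group are listed in the order of mouse number, that is mice 17, 37, 41, 48 and 50 for Control, 8, 14, 27, 46 and 53 for PZH, 23, 30, 33, 44 and 52 for AOM/DSS, and 2, 13, 15, 35 and 36 for PZH + AOM/DSS. Fold changes are on the log2(FPKM + 1) scale from limma, which understates the change of low genes, with the standard error after ± and a p adjusted over all genes tested. A gene was called with an adjusted p under 0.05 and was tested where 5 or more of the 10 mice compared reached 0.5 FPKM. In whole tissue, more cells of a type and more RNA per cell cannot be told apart.

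The depth read from the values was 15.3 to 19.4 (in units of 1000000 fragments) per mouse, and the lymphocyte genes were low, so that the summed FPKM of all 39 was 20.2 to 72.2 in Control mice and 62.4 to 121 in AOM/DSS mice. The labels name colon as the tissue, although their extraction text speaks of the abdominal aorta. Vil1, the villin of the epithelial brush border, was at 157 to 274 FPKM in the 20 mice. Epcam, another defining gene of the epithelium, was listed at 0 in 13 of the 20 mice and at 233 to 865 FPKM in the others. Transcripts that the authors assembled anew carry no gene name in the files and enter no sum, so a value at 0 here does not show that a gene was silent. Of the 780 values of the 39 genes, 23 were at 0, in 10 genes.

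Libraries stood apart within groups. Control mouse 37 held the highest value of its group in 32 of the 39 genes, and its summed FPKM of 10 B cell genes was 104, against 6.71 to 25.0 in the other 4 Control mice. PZH mice 8 and 27 were likewise high in the B cell genes, at 85.0 and 75.0 against 8.62 to 12.3 in the other 3 PZH mice, and mouse 8 was the highest PZH mouse in 22 of the 39 genes. Control mice 17 and 50 had 301 and 258 summed FPKM of 6 squamous epithelium genes, against 0.824 to 1.64 in the other 3 Control mice, and these mice were the lowest of the Control group in 10 and 19 of the 39 genes. The calls that ended without Control mice 17 and 50 are given with and without them.

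**Figure D1:**
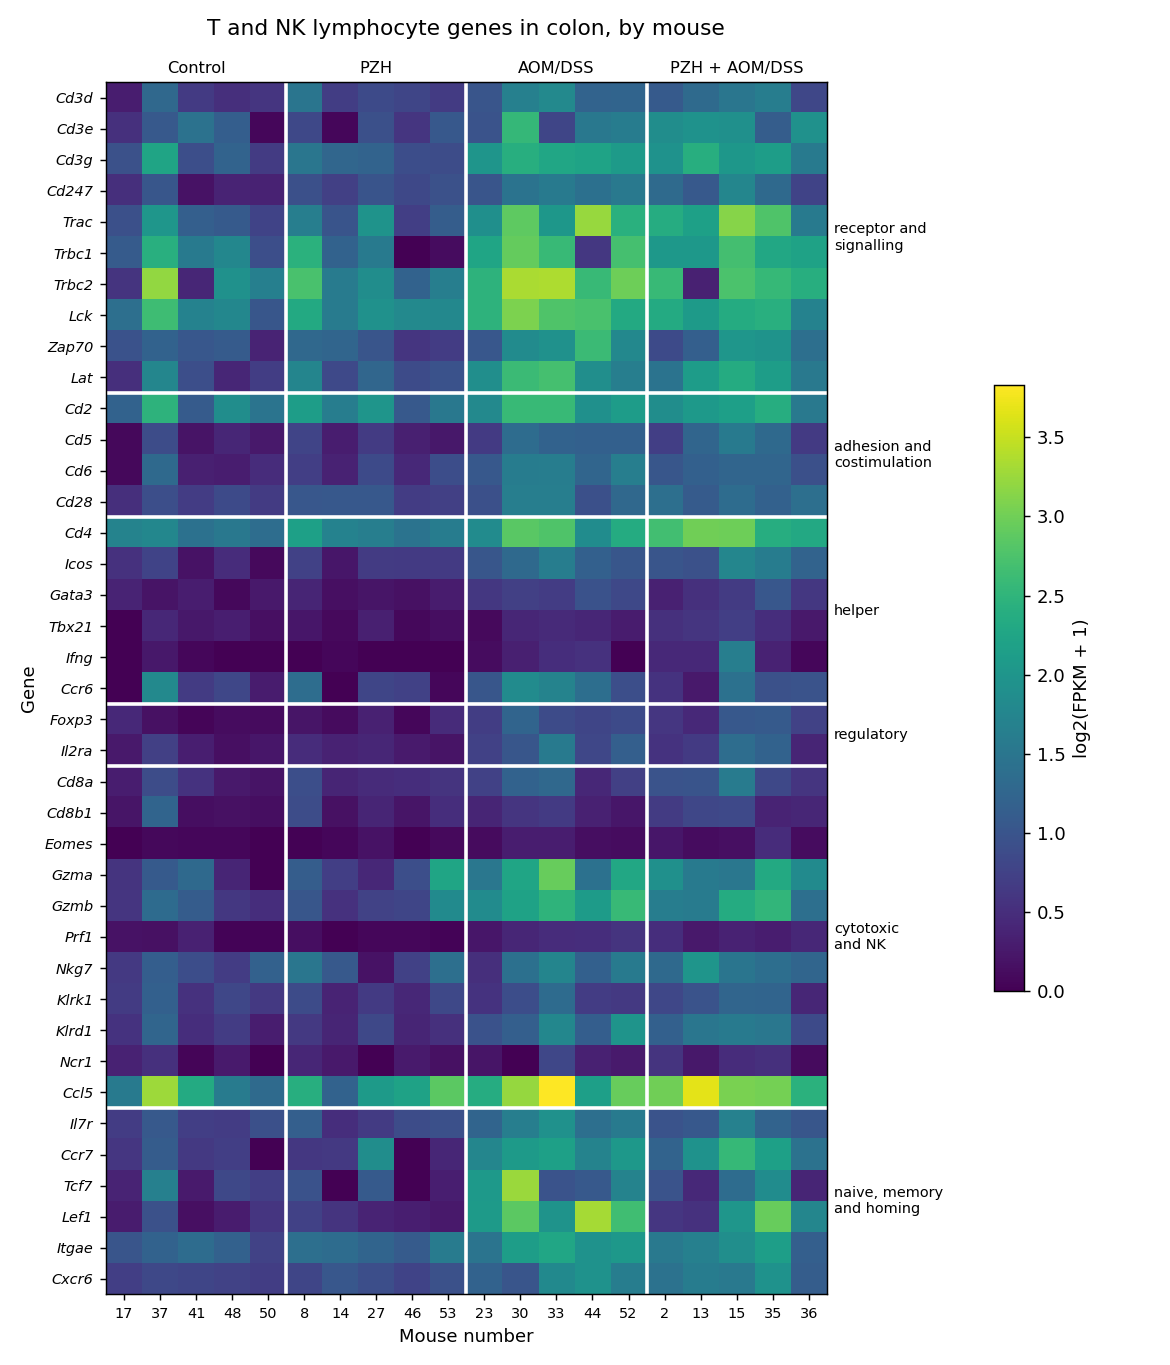
Heat map of log2(FPKM + 1) of the 39 genes (rows, in 6 role groups) in the 20 mice (columns, in 4 groups of 5, by mouse number). The columns of AOM/DSS and PZH + AOM/DSS are brighter in most rows than those of Control and PZH, and Control mouse 37 is the brightest Control column, being the highest of its group in 32 rows.

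Some members are shown by sequence because the letters bear on how their values can be read. Trbc1 and Trbc2 encode alternative constant regions of the receptor's β chain and lie on the plus strand at chr6:41538218-41539881 and chr6:41546730-41548352 (GRCm38). Over the first 500 bases of a GENCODE M21 transcript of each, all coding, 19 bases differed, an identity of 96.2%, and of these 1 fell in the first 360 bases. Bases 361 to 500 of both are printed, 5′ to 3′, with the differing bases in capitals:
Trbc1: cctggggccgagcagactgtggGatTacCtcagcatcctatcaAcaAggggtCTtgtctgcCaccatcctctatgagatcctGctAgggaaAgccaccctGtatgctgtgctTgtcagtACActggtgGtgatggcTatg
Trbc2: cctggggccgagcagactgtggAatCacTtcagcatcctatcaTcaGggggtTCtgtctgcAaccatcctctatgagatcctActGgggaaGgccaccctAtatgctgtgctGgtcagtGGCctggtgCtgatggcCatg
Reads from the near-identical first stretch could be placed on either gene, so that the split between them is uncertain.

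Promoters were looked up for the 39 genes. RefSeq promoters (GRCm38.p6, 250 bases before and 50 after the start of the gene, 300 in all) were matched for 26 of the 39 genes. The core TGTGGT, bound by RUNX factors, which act in T and NK cell development, was found on either strand in 11 of these 26 (42.3%) and in 16.8% of 32851 promoters of the same length. Of the cytotoxic and NK genes 6 of 8 held it (Gzma, Gzmb, Klrk1, Ncr1, Nkg7 and Prf1), as did Lat and Lck, Ccr6, and Cxcr6 and Il7r. The ETS core GGAAGT was in 10 of the 26 (38.5%) and in 23.8% of all promoters. The letters AGATAA, read by GATA factors, were in 1 and in 11.2% of all promoters. A TCF/LEF motif, ATCAAAG, was in 1 and in 3.73% of all, and an AP-1 motif, TGAGTCA, in 2 and in 5.2% of all. The RUNX core was searched as TGTGGT and its reverse complement, as were the others. A match is a description of the letters only. The 250 bases before the start are printed for 3 genes that rose in AOM/DSS, the receptor kinase Lck and the granzymes Gzma and Gzmb, with the RUNX core in capitals:
Lck, chr4:129573642-129573891, minus strand: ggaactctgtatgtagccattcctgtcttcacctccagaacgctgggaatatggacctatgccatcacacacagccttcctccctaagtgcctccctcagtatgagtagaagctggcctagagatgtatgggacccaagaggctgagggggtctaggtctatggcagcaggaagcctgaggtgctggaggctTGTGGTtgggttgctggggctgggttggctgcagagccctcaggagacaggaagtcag
Gzma, chr13:113100982-113101231, minus strand: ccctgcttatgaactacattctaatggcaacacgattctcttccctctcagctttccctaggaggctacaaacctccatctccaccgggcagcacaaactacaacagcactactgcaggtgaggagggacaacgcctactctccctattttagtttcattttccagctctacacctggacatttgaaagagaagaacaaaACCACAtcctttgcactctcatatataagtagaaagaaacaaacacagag
Gzmb, chr14:56262335-56262584, minus strand: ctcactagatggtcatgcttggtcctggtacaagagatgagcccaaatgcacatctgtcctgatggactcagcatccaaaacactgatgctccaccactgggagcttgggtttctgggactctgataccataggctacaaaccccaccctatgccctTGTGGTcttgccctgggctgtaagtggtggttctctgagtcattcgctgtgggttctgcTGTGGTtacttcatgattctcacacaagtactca

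In the AOM/DSS group, T and NK genes of every role rose against the Control group. Of 33 genes tested, 23 were higher with limma and 0 lower, against 16.4% of the 15812 genes tested that were higher and 7.23% that were lower. Of the receptor and signalling genes 7 of 10 rose, 3 of 4 adhesion and costimulation genes, 3 of 4 helper genes, both regulatory genes, 3 of 7 cytotoxic and NK genes and 5 of 6 naive, memory and homing genes. Among these, Foxp3 and Gata3 met the filter through the AOM/DSS mice alone. Without the filter, 19 of the 39 genes were called higher and 0 lower, against 2480 higher and 1028 lower of 31007 genes. The median log2 fold change of the 33 was 0.77, against 0.094 over all genes tested. It was 1.5 with 0.1 FPKM added in place of 1, and 1.65 with voom on estimated fragments, against 0.12 and 0.14 over all genes. With a fold above 2 on the FPKM + 1 scale and an unadjusted p under 0.05, 9 rose, where 5.85% of all genes did. All AOM/DSS mice were above all Control mice in 13 of the 33, against 13% of the 15812 genes tested.

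How many genes passed depended on the Control mice. Without Control mouse 37 the count was 27 of 32. Without Control mice 17 and 50 it was 9 of 33, namely Cd247, Icos, Gata3, Foxp3, Gzmb, Il7r, Ccr7, Lef1 and Itgae, with 22 of the 33 at an unadjusted p under 0.05 and a median log2 fold change of 0.73. Without mice 17, 37 and 50, which leaves 2 Control mice, it was 15 of 32. Without AOM/DSS mouse 33 it was 15 of 30. Over all genes tested, calls in both directions were 23.6% with all mice and 22.8% without Control mouse 37. They were 17.8% without Control mice 17 and 50, 13.8% without Control mice 17, 37 and 50, and 18.6% without AOM/DSS mouse 33. Under 18 alternatives each, the calls of Cd28, Cd3d and Klrd1 were lost in 11, those of Cd4 and Zap70 in 9 and that of Lck in 7, whereas those of Cd247, Ccr7, Gzmb, Il7r and Lef1 were lost in 0.

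Of the 4 CD3 chains 3 rose in AOM/DSS, and so did the α chain of the receptor. Cd3g encodes the γ chain of CD3, which assembles the receptor (chr9:44969572-44980431). Cd3g measured 0.932, 3.7, 0.895, 1.33 and 0.579 FPKM in the Control group and 3.0, 4.29, 3.83, 3.66 and 3.26 FPKM in the AOM/DSS group. Cd3g in the PZH group was 1.84, 1.41, 1.32, 0.866 and 0.848 FPKM, and in the PZH + AOM/DSS group 2.88, 4.26, 3.09, 3.36 and 2.0 FPKM. Control mouse 37, at 3.70 FPKM, lay within the AOM/DSS range and the other 4 Control mice lay below it, and the log2 fold change was 1.00 ± 0.26 (adjusted p = 0.0184), or 0.74 (adjusted p = 0.102) without Control mice 17 and 50. Cd3d, the δ chain, was lower in level. Cd3d measured 0.24, 1.46, 0.571, 0.437 and 0.499 FPKM in the Control group and 1.02, 2.16, 2.47, 1.32 and 1.35 FPKM in the AOM/DSS group. Cd3d in the PZH group was 1.8, 0.623, 0.815, 0.738 and 0.579 FPKM, and in the PZH + AOM/DSS group 1.11, 1.5, 1.82, 2.07 and 0.753 FPKM. Its groups overlapped through Control mouse 37, and the change was 0.71 ± 0.21 (adjusted p = 0.0313), or 0.56 (adjusted p = 0.147) without Control mice 17 and 50. Cd247 encodes the ζ chain that carries the signal. Cd247 measured 0.436, 1.03, 0.143, 0.305 and 0.284 FPKM in the Control group and 1.02, 1.74, 2.0, 1.68 and 1.93 FPKM in the AOM/DSS group. Cd247 in the PZH group was 0.902, 0.645, 0.99, 0.783 and 0.922 FPKM, and in the PZH + AOM/DSS group 1.5, 1.09, 2.37, 1.49 and 0.714 FPKM. Control mouse 37 alone reached the lowest AOM/DSS mouse, and the change was 0.91 ± 0.17 (adjusted p = 0.00356). Cd3e, the ε chain, did not pass. Cd3e measured 0.45, 1.1, 1.73, 1.21 and 0.046 FPKM in the Control group and 0.981, 4.89, 0.734, 1.89 and 2.03 FPKM in the AOM/DSS group. Cd3e in the PZH group was 0.772, 0.0483, 0.905, 0.508 and 1.07 FPKM, and in the PZH + AOM/DSS group 2.68, 2.85, 2.79, 1.2 and 2.81 FPKM. Its AOM/DSS mice spread from 0.734 to 4.89 FPKM and overlapped the Control mice, with a change of 0.64 ± 0.35 (adjusted p = 0.215).

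Trac, the constant region of the α chain, was higher in AOM/DSS. Trac measured 0.903, 3.03, 1.24, 1.12 and 0.699 FPKM in the Control group and 2.75, 6.39, 3.08, 8.43 and 4.4 FPKM in the AOM/DSS group. Trac in the PZH group was 2.1, 0.992, 2.89, 0.635 and 1.18 FPKM, and in the PZH + AOM/DSS group 4.15, 3.53, 7.78, 5.86 and 1.95 FPKM. Control mouse 37, at 3.03 FPKM, exceeded the lowest AOM/DSS mouse alone, and the change was 1.31 ± 0.30 (adjusted p = 0.0105), or 1.08 (adjusted p = 0.0668) without Control mice 17 and 50. For the β chain, Trbc1 was 0.887 to 4.35 FPKM in Control and 0.543 to 6.62 in AOM/DSS, with a change of 0.67 ± 0.43 (adjusted p = 0.305), and Trbc2 was 0.334 to 8.28 and 4.57 to 9.21, with 1.39 ± 0.48 (adjusted p = 0.0567). Neither passed, nor did their sum, at 1.23 ± 0.43 (adjusted p = 0.0624). Trbc2 passed under 3 alternatives, with an adjusted p of 0.00627 without Control mouse 37, and Trbc1 under 1, with an adjusted p of 0.037 without AOM/DSS mouse 44. AOM/DSS mouse 44 held 0.543 FPKM of Trbc1 but 5.0 FPKM of Trbc2, and PZH + AOM/DSS mouse 13 held 3.13 of Trbc1 but 0.269 of Trbc2.

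The signalling genes beneath the receptor rose as well. Lck, the kinase that starts receptor signalling, was among the most abundant of the 39. Lck measured 1.63, 5.21, 2.25, 2.4 and 1.04 FPKM in the Control group and 4.58, 7.4, 5.81, 5.63 and 4.0 FPKM in the AOM/DSS group. Lck in the PZH group was 4.0, 2.0, 2.81, 2.5 and 2.46 FPKM, and in the PZH + AOM/DSS group 4.08, 3.25, 4.13, 4.35 and 2.24 FPKM. Control mouse 37, at 5.21 FPKM, lay among the AOM/DSS mice, and the change was 0.97 ± 0.27 (adjusted p = 0.0262), or 0.64 (adjusted p = 0.12) without Control mice 17 and 50. Zap70 encodes the kinase that Lck activates. Zap70 measured 0.961, 1.31, 1.05, 1.14 and 0.298 FPKM in the Control group and 1.06, 2.61, 2.85, 5.12 and 2.44 FPKM in the AOM/DSS group. Zap70 in the PZH group was 1.45, 1.38, 1.01, 0.507 and 0.599 FPKM, and in the PZH + AOM/DSS group 0.821, 1.23, 3.05, 2.89 and 1.65 FPKM. AOM/DSS mouse 23, at 1.06 FPKM, fell among the Control mice, and the change was 0.91 ± 0.26 (adjusted p = 0.0303), or 0.73 (adjusted p = 0.128) without Control mice 17 and 50. Lat, the adaptor that gathers the signalling proteins, gave a larger difference. Lat measured 0.436, 2.39, 0.893, 0.334 and 0.626 FPKM in the Control group and 2.72, 5.11, 5.5, 2.72 and 2.1 FPKM in the AOM/DSS group. Lat in the PZH group was 2.35, 0.791, 1.41, 0.841 and 0.954 FPKM, and in the PZH + AOM/DSS group 1.74, 3.34, 4.12, 3.36 and 1.93 FPKM. Apart from Control mouse 37, all Control mice were below all AOM/DSS mice, and the change was 1.28 ± 0.29 (adjusted p = 0.00976), or 1.11 (adjusted p = 0.0612) without Control mice 17 and 50.

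Of the adhesion and costimulation genes, Cd28 showed no overlap. Cd28 encodes the costimulatory receptor for CD80 and CD86. Cd28 measured 0.424, 0.897, 0.601, 0.814 and 0.579 FPKM in the Control group and 0.912, 2.12, 2.1, 0.911 and 1.44 FPKM in the AOM/DSS group. Cd28 in the PZH group was 1.05, 1.07, 1.07, 0.60 and 0.646 FPKM, and in the PZH + AOM/DSS group 1.64, 1.14, 1.56, 1.28 and 1.65 FPKM. The lowest AOM/DSS mouse, at 0.911 FPKM, stood just above the highest Control mouse, at 0.897, and the change was 0.56 ± 0.17 (adjusted p = 0.0354), or 0.47 (adjusted p = 0.153) without Control mice 17 and 50. Cd5 is a receptor that dampens signalling. Cd5 measured 0.0591, 0.853, 0.149, 0.331 and 0.198 FPKM in the Control group and 0.576, 1.56, 1.3, 1.26 and 1.25 FPKM in the AOM/DSS group. Cd5 in the PZH group was 0.72, 0.238, 0.594, 0.262 and 0.181 FPKM, and in the PZH + AOM/DSS group 0.639, 1.37, 1.95, 1.47 and 0.569 FPKM. Control mouse 37 passed AOM/DSS mouse 23, and the change was 0.74 ± 0.18 (adjusted p = 0.0116), or 0.61 (adjusted p = 0.0697) without Control mice 17 and 50. Cd6, a related receptor, gave the same picture. Cd6 measured 0.0605, 1.47, 0.267, 0.234 and 0.403 FPKM in the Control group and 1.08, 2.04, 2.08, 1.37 and 2.13 FPKM in the AOM/DSS group. Cd6 in the PZH group was 0.644, 0.284, 0.806, 0.353 and 0.868 FPKM, and in the PZH + AOM/DSS group 1.04, 1.27, 1.38, 1.37 and 0.904 FPKM. Control mouse 37 overlapped 2 AOM/DSS mice, and the change was 0.93 ± 0.22 (adjusted p = 0.0125), or 0.79 (adjusted p = 0.0683) without Control mice 17 and 50. Cd2, an adhesion molecule of T and NK cells, was 1.13 to 4.57 FPKM in Control and 2.5 to 4.98 in AOM/DSS, with a change of 0.57 ± 0.27 (adjusted p = 0.16) that did not pass.

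Helper genes were led by Cd4, the co-receptor of helper T cells, at chr6:124864692-124888221. Cd4 measured 2.27, 2.4, 1.68, 1.9 and 1.59 FPKM in the Control group and 2.6, 6.17, 5.81, 2.63 and 4.12 FPKM in the AOM/DSS group. Cd4 in the PZH group was 3.53, 2.24, 2.1, 1.76 and 2.04 FPKM, and in the PZH + AOM/DSS group 5.38, 6.96, 6.95, 4.21 and 3.95 FPKM. All 5 AOM/DSS mice were above all 5 Control mice, with means of 4.27 ± 1.69 and 1.97 ± 0.355 FPKM (SD, n = 5 each), and the change was 0.77 ± 0.22 (adjusted p = 0.026), or 0.76 (adjusted p = 0.0869) without Control mice 17 and 50. Icos encodes a costimulator of activated helper cells. Icos measured 0.453, 0.713, 0.143, 0.399 and 0.0724 FPKM in the Control group and 1.04, 1.48, 2.08, 1.26 and 1.03 FPKM in the AOM/DSS group. Icos in the PZH group was 0.675, 0.171, 0.593, 0.565 and 0.574 FPKM, and in the PZH + AOM/DSS group 1.01, 0.925, 2.37, 2.05 and 1.33 FPKM. Its groups did not overlap and the change was 0.81 ± 0.16 (adjusted p = 0.00493). Gata3 encodes the transcription factor of type 2 helper cells and is also used by innate lymphoid cells. Gata3 measured 0.304, 0.145, 0.232, 0.0581 and 0.201 FPKM in the Control group and 0.54, 0.648, 0.607, 0.951 and 0.772 FPKM in the AOM/DSS group. Gata3 in the PZH group was 0.321, 0.12, 0.158, 0.128 and 0.223 FPKM, and in the PZH + AOM/DSS group 0.281, 0.446, 0.583, 1.05 and 0.545 FPKM. It was low in every mouse, the groups did not overlap, and the change was 0.52 ± 0.10 (adjusted p = 0.00344). Gata3 met the filter through the AOM/DSS mice alone, and without the filter its adjusted p was 0.0037.

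Genes of type 1 helper cells were too low to test. Tbx21 encodes T-bet, the transcription factor that defines them. Tbx21 measured 0, 0.341, 0.186, 0.25 and 0.118 FPKM in the Control group and 0.071, 0.333, 0.376, 0.334 and 0.228 FPKM in the AOM/DSS group. Tbx21 in the PZH group was 0.171, 0.0742, 0.266, 0.0589 and 0.105 FPKM, and in the PZH + AOM/DSS group 0.441, 0.507, 0.637, 0.414 and 0.194 FPKM. The groups overlapped, with 4 of the 5 AOM/DSS mice within the Control range, and without the filter the change was 0.11 ± 0.090 (adjusted p = 0.55). Ifng encodes interferon-γ, which these cells and NK cells secrete. Ifng measured 0, 0.181, 0.0426, 0 and 0.0121 FPKM in the Control group and 0.0975, 0.264, 0.415, 0.467 and 0 FPKM in the AOM/DSS group. Ifng in the PZH group was 0, 0.051, 0, 0 and 0 FPKM, and in the PZH + AOM/DSS group 0.363, 0.359, 2.1, 0.284 and 0.050 FPKM. Mice 23 and 52 of the AOM/DSS group lay within the Control range. The median was an estimated 0.25 fragments in Control and 3.75 in AOM/DSS, and without the filter the change was 0.24 ± 0.10 (adjusted p = 0.188). PZH + AOM/DSS mouse 15 stood apart at 2.1 FPKM. Ccr6, a homing receptor of type 17 helper cells that B cells also carry, ranged from 0 to 2.47 FPKM in Control and from 0.896 to 2.60 in AOM/DSS, with a change of 0.67 ± 0.32 (adjusted p = 0.158) that did not pass. Its highest Control value was in mouse 37.

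Both regulatory genes were called higher, of which Foxp3 met the filter through the AOM/DSS mice alone and had an adjusted p of 0.00332 without it. Foxp3, at chrX:7573644-7595245, is the transcription factor that defines regulatory T cells. Foxp3 measured 0.355, 0.132, 0.0336, 0.0934 and 0.0765 FPKM in the Control group and 0.627, 1.36, 0.841, 0.736 and 0.806 FPKM in the AOM/DSS group. Foxp3 in the PZH group was 0.163, 0.0763, 0.273, 0.0459 and 0.387 FPKM, and in the PZH + AOM/DSS group 0.522, 0.364, 1.08, 1.13 and 0.682 FPKM. The lowest AOM/DSS mouse, at 0.627 FPKM, was above the highest Control mouse, at 0.355, and Control mouse 37 was not high in this gene. The means were 0.873 ± 0.283 and 0.138 ± 0.126 FPKM (SD, n = 5 each), the change was 0.71 ± 0.12 (adjusted p = 0.0020), and it passed without any 1 of the Control mice. Without any 1 of the AOM/DSS mice the gene no longer met the filter on low values and was not tested. The values rest on a median of 52.5 estimated fragments in AOM/DSS and 5.75 in Control. Il2ra encodes the α chain of the interleukin-2 receptor, which regulatory and activated T cells carry. Il2ra measured 0.201, 0.661, 0.245, 0.113 and 0.173 FPKM in the Control group and 0.664, 1.04, 1.98, 0.762 and 1.24 FPKM in the AOM/DSS group. Il2ra in the PZH group was 0.40, 0.286, 0.327, 0.206 and 0.155 FPKM, and in the PZH + AOM/DSS group 0.483, 0.575, 1.59, 1.3 and 0.315 FPKM. The highest Control mouse, mouse 37 at 0.661 FPKM, was just under the lowest AOM/DSS mouse at 0.664, and the change was 0.72 ± 0.17 (adjusted p = 0.0119), or 0.66 (adjusted p = 0.0654) without Control mice 17 and 50.

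**Figure D2:**
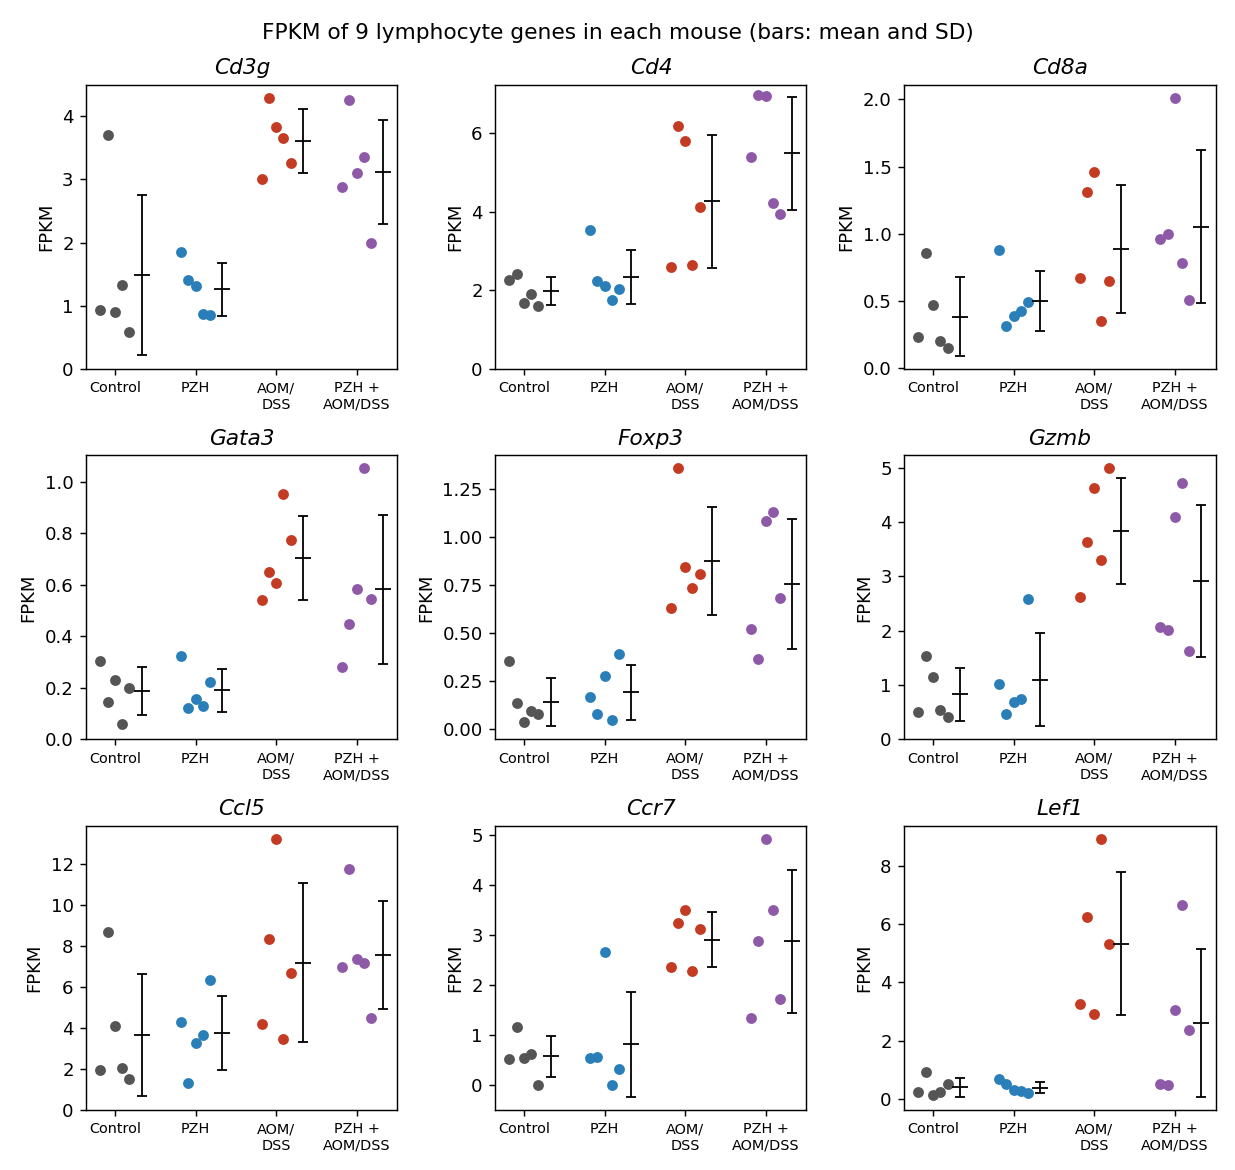
FPKM of 9 genes in each mouse (points) of the 4 groups, with the group mean and SD beside them as black bars (n = 5). Gata3, Foxp3, Gzmb, Ccr7, Cd4 and Lef1 are higher in AOM/DSS than in Control with no overlap, as are 13% of all genes tested. The Cd8a and Ccl5 points of these groups overlap, and Control mouse 37 is within the AOM/DSS range of Cd3g.

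In the cytotoxic and NK group, the granzymes changed and the CD8 genes did not pass. Gzmb encodes granzyme B, a serine protease of killer cell granules, at chr14:56258838-56262260. Gzmb measured 0.50, 1.53, 1.16, 0.542 and 0.408 FPKM in the Control group and 2.61, 3.63, 4.63, 3.3 and 4.99 FPKM in the AOM/DSS group. Gzmb in the PZH group was 1.03, 0.461, 0.685, 0.745 and 2.58 FPKM, and in the PZH + AOM/DSS group 2.07, 2.02, 4.1, 4.72 and 1.63 FPKM. The groups did not overlap, with means of 3.83 ± 0.972 FPKM in AOM/DSS and 0.828 ± 0.492 in Control (SD, n = 5 each) and a change of 1.42 ± 0.20 (adjusted p = 7.98e-04). Gzma encodes granzyme A. Gzma measured 0.491, 1.12, 1.48, 0.313 and 0 FPKM in the Control group and 1.88, 3.77, 6.7, 1.68 and 3.9 FPKM in the AOM/DSS group. Gzma in the PZH group was 1.18, 0.631, 0.35, 0.899 and 3.78 FPKM, and in the PZH + AOM/DSS group 2.77, 1.99, 1.86, 3.99 and 2.56 FPKM. Its groups did not overlap either, the lowest AOM/DSS mouse being at 1.68 FPKM and the highest Control mouse at 1.48, and the change was 1.42 ± 0.33 (adjusted p = 0.0107), or 1.16 (adjusted p = 0.0616) without Control mice 17 and 50. Prf1 encodes perforin, which opens the target cell, and was below the filter. Prf1 measured 0.136, 0.122, 0.27, 0.0252 and 0.0237 FPKM in the Control group and 0.18, 0.329, 0.406, 0.416 and 0.483 FPKM in the AOM/DSS group. Prf1 in the PZH group was 0.0983, 0, 0.0497, 0.0474 and 0.0264 FPKM, and in the PZH + AOM/DSS group 0.41, 0.197, 0.296, 0.233 and 0.342 FPKM. AOM/DSS mouse 23, at 0.180 FPKM, was the only one within the Control range, and without the filter the change was 0.29 ± 0.077 (adjusted p = 0.0374).

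Cd8a, the co-receptor of cytotoxic T cells, was spread widely in both groups. Cd8a measured 0.234, 0.855, 0.472, 0.199 and 0.15 FPKM in the Control group and 0.67, 1.31, 1.46, 0.35 and 0.648 FPKM in the AOM/DSS group. Cd8a in the PZH group was 0.882, 0.315, 0.388, 0.422 and 0.492 FPKM, and in the PZH + AOM/DSS group 0.962, 1.0, 2.01, 0.784 and 0.508 FPKM. The groups overlapped, and the change of 0.44 ± 0.19 (adjusted p = 0.128) did not pass. Cd8b1, its partner chain, was 0.0989 to 1.36 FPKM in Control and 0.172 to 0.57 in AOM/DSS and was too low to test, and the highest of all 20 values was that of Control mouse 37. Ccl5, a chemokine that killer cells store, had the highest mean level of the 39 genes in AOM/DSS in FPKM, which is per length of transcript. Ccl5 measured 1.95, 8.65, 4.08, 2.01 and 1.51 FPKM in the Control group and 4.2, 8.35, 13.2, 3.45 and 6.68 FPKM in the AOM/DSS group. Ccl5 in the PZH group was 4.29, 1.3, 3.24, 3.63 and 6.31 FPKM, and in the PZH + AOM/DSS group 6.97, 11.7, 7.36, 7.17 and 4.47 FPKM. Control mouse 37, at 8.65 FPKM, exceeded 4 of the 5 AOM/DSS mice, and the change of 0.89 ± 0.41 (adjusted p = 0.149) did not pass. Without that mouse it passed at 1.2 (adjusted p = 0.035), and without Control mice 17, 37 and 50 it did not, at 0.94 (adjusted p = 0.216).

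The NK cell receptors gave small or uneven differences. Klrd1 encodes CD94, part of an NK receptor pair. Klrd1 measured 0.472, 1.39, 0.419, 0.596 and 0.233 FPKM in the Control group and 0.949, 1.24, 2.41, 1.21 and 2.97 FPKM in the AOM/DSS group. Klrd1 in the PZH group was 0.546, 0.313, 0.785, 0.315 and 0.441 FPKM, and in the PZH + AOM/DSS group 1.25, 1.84, 1.94, 1.86 and 0.823 FPKM. Control mouse 37, at 1.39 FPKM, overlapped 3 AOM/DSS mice, and the change was 0.75 ± 0.23 (adjusted p = 0.0413), or 0.59 (adjusted p = 0.179) without Control mice 17 and 50. Klrk1, the activating receptor NKG2D, was 0.457 to 1.26 FPKM in Control and 0.479 to 1.53 in AOM/DSS, with 0.058 ± 0.17 (adjusted p = 0.845), and Nkg7, a granule protein, was 0.55 to 1.28 and 0.435 to 2.34, with 0.37 ± 0.22 (adjusted p = 0.262). Ncr1, the receptor NKp46 that marks NK cells, was at or below 0.765 FPKM in all 20 mice, and Eomes, a transcription factor of killer cells, at or below 0.402 FPKM. Neither was tested. All 5 AOM/DSS mice were above all 5 Control mice in Eomes, at medians of 6.0 and 2.0 estimated fragments.

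Genes of naive, memory and homing cells included the largest difference of the 39, that of Lef1. Ccr7 encodes the receptor that leads naive T cells and dendritic cells to lymphoid tissue. Ccr7 measured 0.525, 1.17, 0.553, 0.63 and 0 FPKM in the Control group and 2.37, 3.25, 3.5, 2.28 and 3.13 FPKM in the AOM/DSS group. Ccr7 in the PZH group was 0.538, 0.56, 2.66, 0 and 0.33 FPKM, and in the PZH + AOM/DSS group 1.34, 2.89, 4.93, 3.5 and 1.73 FPKM. The groups did not overlap, and the change was 1.34 ± 0.19 (adjusted p = 8.03e-04). Il7r, the receptor for the survival factor interleukin-7, is carried by naive and memory T cells and by innate lymphoid cells. Il7r measured 0.602, 1.1, 0.635, 0.603 and 0.917 FPKM in the Control group and 1.35, 2.1, 2.84, 1.65 and 1.94 FPKM in the AOM/DSS group. Il7r in the PZH group was 1.23, 0.409, 0.594, 0.861 and 0.904 FPKM, and in the PZH + AOM/DSS group 0.966, 1.07, 2.22, 1.33 and 1.04 FPKM. The groups did not overlap, with a change of 0.74 ± 0.15 (adjusted p = 0.00523). Itgae encodes the αE integrin (CD103), by which T cells hold on to the epithelium. Itgae measured 1.01, 1.31, 1.54, 1.29 and 0.69 FPKM in the Control group and 1.78, 3.4, 3.83, 2.86 and 3.13 FPKM in the AOM/DSS group. Itgae in the PZH group was 1.64, 1.56, 1.36, 1.14 and 2.02 FPKM, and in the PZH + AOM/DSS group 1.91, 2.17, 2.7, 3.43 and 1.24 FPKM. The lowest AOM/DSS mouse, at 1.78 FPKM, was above the highest Control mouse, at 1.54, and the change was 0.87 ± 0.17 (adjusted p = 0.00468). Cxcr6, a homing receptor of tissue-resident cells, was even in Control. Cxcr6 measured 0.641, 0.779, 0.742, 0.686 and 0.618 FPKM in the Control group and 1.3, 1.02, 2.53, 2.88 and 2.09 FPKM in the AOM/DSS group. Cxcr6 in the PZH group was 0.737, 1.06, 0.899, 0.703 and 0.937 FPKM, and in the PZH + AOM/DSS group 1.72, 2.05, 1.94, 2.87 and 1.18 FPKM. No AOM/DSS mouse fell within the Control range and the change was 0.77 ± 0.18 (adjusted p = 0.0106), or 0.73 (adjusted p = 0.0543) without Control mice 17 and 50.

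Lef1 and Tcf7 encode related transcription factors of naive T cells that also act in Wnt signalling of the epithelium, where Lef1 is itself a target. Lef1 measured 0.228, 0.938, 0.118, 0.221 and 0.499 FPKM in the Control group and 3.24, 6.26, 2.91, 8.93 and 5.31 FPKM in the AOM/DSS group. Lef1 in the PZH group was 0.677, 0.495, 0.30, 0.254 and 0.197 FPKM, and in the PZH + AOM/DSS group 0.514, 0.466, 3.04, 6.66 and 2.37 FPKM. Lef1 in every AOM/DSS mouse was at least 2.91 FPKM against at most 0.938 in Control, and the change of 2.12 ± 0.26 (adjusted p = 3.18e-04) had the largest size and the smallest adjusted p of the 39. Tcf7 was uneven. Tcf7 measured 0.298, 2.18, 0.214, 0.777 and 0.64 FPKM in the Control group and 3.17, 8.51, 0.976, 1.11 and 2.26 FPKM in the AOM/DSS group. Tcf7 in the PZH group was 0.96, 0, 1.12, 0 and 0.243 FPKM, and in the PZH + AOM/DSS group 0.982, 0.354, 1.56, 2.64 and 0.312 FPKM. Its AOM/DSS value in mouse 30 was 8.51 FPKM while mice 33 and 44 lay within the Control range, and the change of 1.04 ± 0.42 (adjusted p = 0.0997) did not pass. The 10 Wnt target genes of epithelium were all higher in AOM/DSS, with a median change of 3.23, and their summed FPKM was 22.6 to 36.9 in Control and 246 to 503 in AOM/DSS. The part of epithelial cells in the Lef1 and Tcf7 values was not tested.

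**Figure D3:**
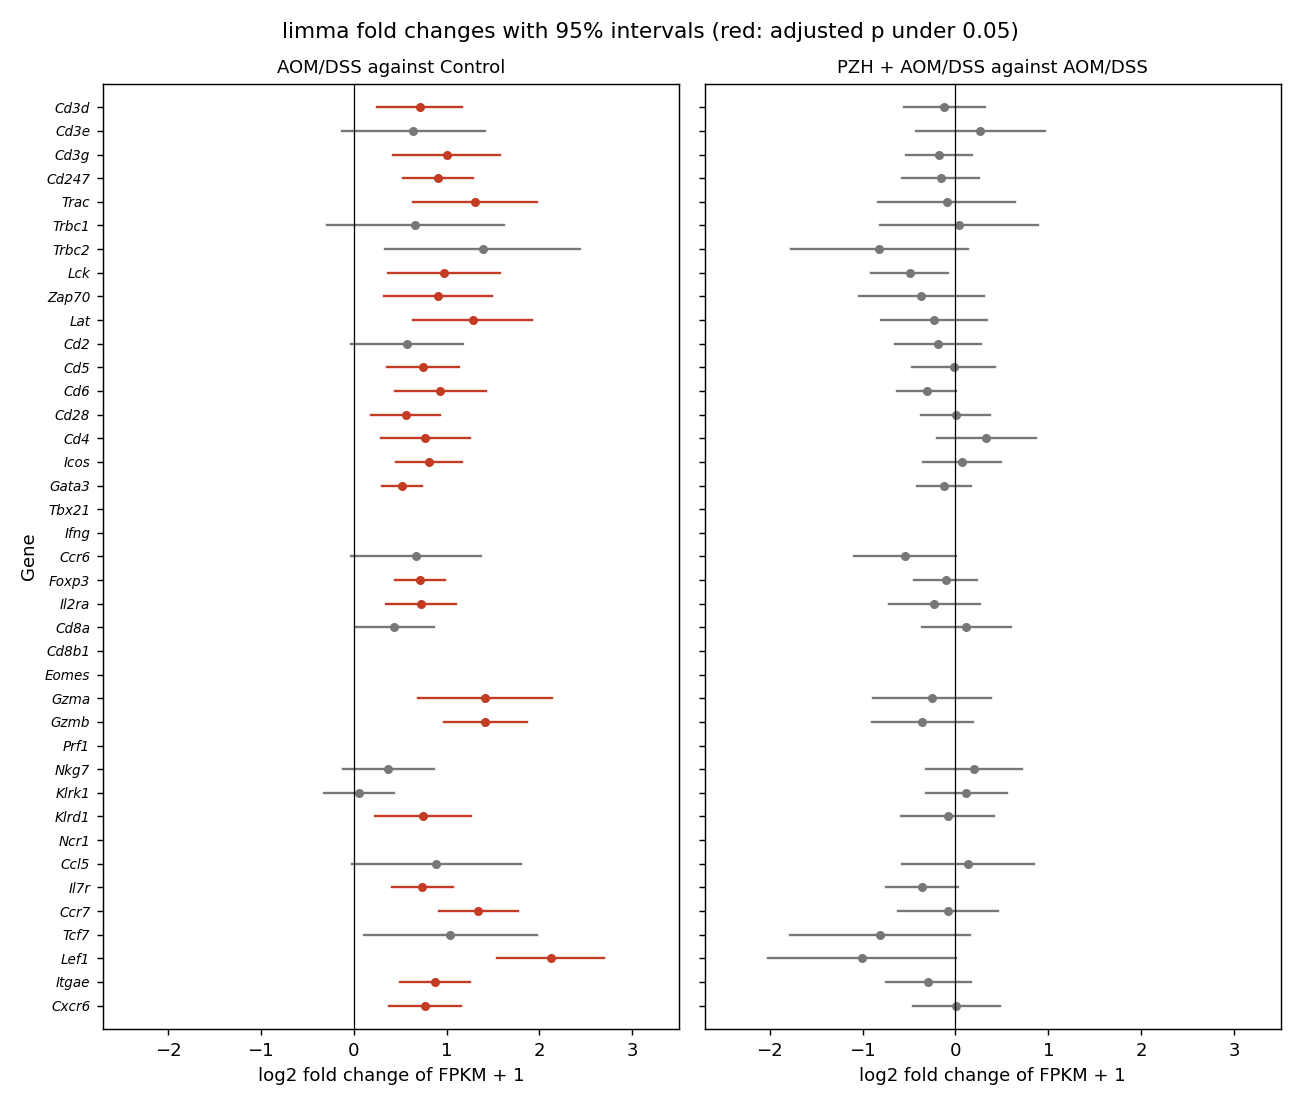
Log2 fold changes of FPKM + 1 with 95% intervals for the tested genes, in AOM/DSS against Control (left) and PZH + AOM/DSS against AOM/DSS (right). Red marks an adjusted p under 0.05, which 23 genes had on the left, all to the right of 0, and 0 genes on the right, where Lef1 has the lowest point at -1.01.

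Other genes of the same cells, and markers of other cells, were read in AOM/DSS against Control as well. Of 64 further T and NK cell genes, 35 were tested and 15 rose and 0 fell, where 16.4% of all genes were higher. In PZH against Control, 23 of the 64 met the filter. Without the filter 18 of the 64 passed, against 11.3% of all genes in both directions. Among the 64, Tnfrsf9, an activation marker, changed by 1.56 ± 0.17 (adjusted p = 1.57e-04) and Il18rap, an interleukin-18 receptor chain, by 1.09 ± 0.14 (adjusted p = 4.66e-04). Lcp2, a partner of Lat, changed by 1.05 ± 0.15 (adjusted p = 7.98e-04) and Ctla4, an inhibitory receptor of regulatory T cells, by 1.11 ± 0.17 (adjusted p = 0.00135). Of 19 ligands for the receptors, 16 were tested and 2 rose, a share under the 16.4% of all genes tested. They were ligands of Cd28, namely Cd86 at 0.79 ± 0.17 (adjusted p = 0.00799) and Cd80 at 0.59 ± 0.16 (adjusted p = 0.0261). Of the 10 B cell genes 2 were called higher, near the 16.4% of all genes tested, and without the filter 0 were called. At an unadjusted p under 0.05, 5 were higher, where 24.2% of all genes were. All 10 differences were above 0, and their median was 0.98. The summed FPKM of the B cell genes ranged from 6.71 to 104 over the Control mice and from 35.6 to 106 over the AOM/DSS mice. The PZH mice ranged from 8.62 to 85.0 and the PZH + AOM/DSS mice from 34.0 to 85.3. No B cell gene was at 0 in all mice of a group. Of 5 plasma cell genes 2 rose (Igha and Mzb1), and of 10 macrophage and dendritic cell genes 6 rose (among them Cd14, 1.03, and Itgax, 1.24). Of all genes tested 16.4% were higher.

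Neutrophil genes rose as well. All 7 tested of 8 passed, with a median of 2.21, where 16.4% of all genes were higher, and 7 passed without the filter. In PZH against Control, 1 of the 8 met the filter. The summed FPKM of the 8 was 0.257 to 31.3 in Control and 104 to 552 in AOM/DSS. Control mice 17 and 50 had 31.3 and 26.4, and the other Control mice had at most 1.08. Of 4 tested genes of innate lymphoid cells 1 rose, Il1rl1, the interleukin-33 receptor that type 2 innate lymphoid cells and regulatory T cells carry, at 3.85 ± 0.17 (adjusted p = 5.99e-07). Of 7 smooth muscle and vessel wall genes 6 were lower, with a median of -1.20 and a sum of 2261 to 5197 FPKM in Control and 1009.7 to 1739.7 in AOM/DSS. Of 9 tested colon epithelium genes 3 were lower (Slc26a3, Car1 and Lgals4) and 0 higher. Of all genes tested 7.23% were lower and 16.4% higher. The colon epithelium list was mixed, with 4 differences above 0 and 6 below without the filter. By a fold above 2 and an unadjusted p under 0.05 with limma, 1 of its genes was higher and 2 were lower, against 5.85% and 1.86% of all genes. None of 3 tested squamous epithelium genes passed. The lists of other genes were not refitted without Control mice 17 and 50. The part of these cells in the lymphocyte differences was not tested.

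**Figure D4:**
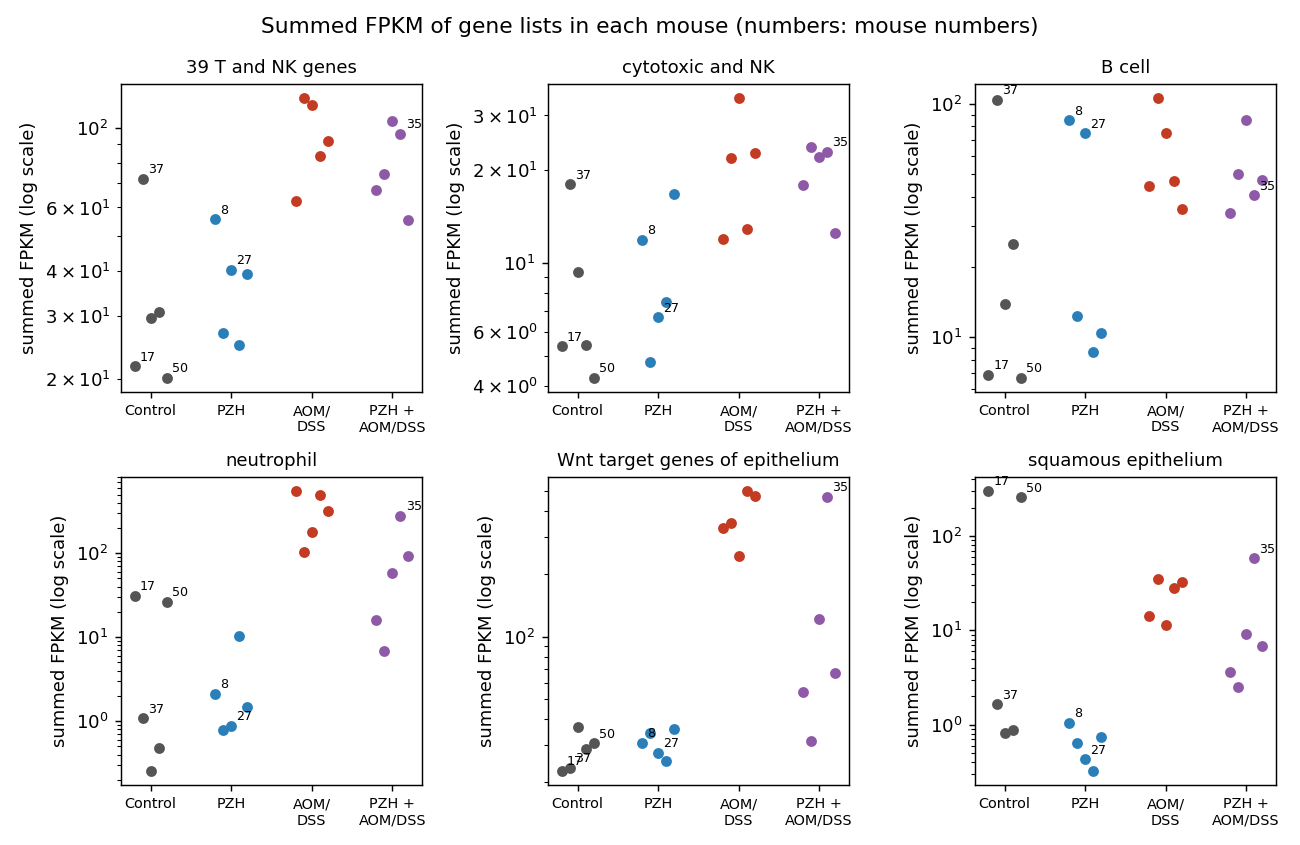
Summed FPKM of 6 gene lists in each mouse on log axes, with the mice that stand apart numbered. Control mouse 37 lies with the AOM/DSS mice for the T and NK genes and the B cell genes but not for the neutrophil or Wnt target genes, and Control mice 17 and 50 are high in squamous epithelium genes, at 301 and 258.

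PZH given to mice without the model left no called difference in these genes. In PZH against Control, 25 of the 39 genes were tested and limma called 0, as it did with voom weights on estimated fragments, against 0% of the 15506 genes tested that were higher and 0.00645% that were lower. At an unadjusted p under 0.05 there was 1 gene, Cd247, which was higher at 0.39 ± 0.15 (adjusted p = 0.536), unadjusted p = 0.024, where 4.34% of all genes were higher at that level. All 5 PZH mice had more Cd247 than Control mice 17, 41, 48 and 50, and Control mouse 37, at 1.03 FPKM, exceeded every PZH mouse. The median change of the 25 was 0.14, against 0.0065 over all genes. Without the filter, 28 of the 39 differences were above 0 and 11 below. The count stayed at 0 without Control mice 17 and 50, and without Control mouse 37 and PZH mice 8 and 27.

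The intervals in PZH against Control were wide. Cd4 had a difference of 0.15 (95% interval -0.18 to 0.49), Gzmb 0.16 (95% interval -0.40 to 0.72), Itgae 0.24 (95% interval -0.072 to 0.54) and Ccl5 0.14 (95% interval -0.74 to 1.01). PZH mouse 53 was high in both granzymes, at 3.78 FPKM of Gzma and 2.58 of Gzmb, above all Control mice, while the other PZH mice were at or below 1.18 and 1.03. Foxp3, Il2ra, Gata3 and Lef1 were below the filter in these groups.

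For PZH given during the model, no T or NK gene passed the test. In PZH + AOM/DSS against AOM/DSS, 33 genes were tested and limma called 0, as it did with voom weights, against 0.00629% of the 15888 genes tested that were higher and 0% that were lower. Lck alone reached an unadjusted p under 0.05, lower at -0.49 ± 0.19 (adjusted p = 0.375), unadjusted p = 0.0236, where 8.21% of all genes were lower at that level. Its values, given above, ran from 2.24 to 4.35 FPKM in PZH + AOM/DSS and from 4.0 to 7.4 in AOM/DSS, so that 3 of the treated mice exceeded the lowest model mouse, mouse 52, and none exceeded the other 4. None of the 33 was lower by a fold above 2 on the FPKM + 1 scale with an unadjusted p under 0.05, as 2.01% of all genes were. Over all 39 genes without the filter, 15 differences were above 0 and 24 below, and the median of the 33 tested was -0.12, against -0.038 over all genes.

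By role, the medians in PZH + AOM/DSS against AOM/DSS were -0.17 for receptor and signalling genes, -0.10 for adhesion and costimulation, -0.023 for helper, -0.16 for regulatory, 0.12 for cytotoxic and NK, and -0.33 for naive, memory and homing genes. Foxp3 differed by -0.10 (95% interval -0.44 to 0.24) and Gzmb by -0.35 (95% interval -0.90 to 0.19). Cd4 was higher in the treated mice by 0.33 (95% interval -0.20 to 0.87), and Ccl5 by 0.14 (95% interval -0.58 to 0.85). Neither passed. Lef1 had the largest difference, -1.01 (95% interval -2.02 to 0.0056), adjusted p = 0.429. PZH + AOM/DSS mice 2 and 13 were at 0.514 and 0.466 FPKM of Lef1, within the Control range, and mouse 35 was at 6.66, within the AOM/DSS range. Mouse 35 was also the highest treated mouse in the Wnt target genes, with a summed FPKM of 472 against 31.6 to 122 in the other 4. Without mouse 35 the called members stayed at 0, although the calls over all genes went from 1 to 808.

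Lists of other cells in the same comparison had no called gene either, with limma. At an unadjusted p under 0.05, 6 of 7 neutrophil genes, 8 of 10 Wnt target genes and 4 of 41 further T and NK genes were lower. Of all genes tested 8.21% were lower at that level, which is near the share of the further T and NK genes. By the fold and unadjusted p together, 5 of 7 neutrophil genes and 8 of 10 Wnt target genes were lower in PZH + AOM/DSS, with medians of -1.39 and -1.75. Of the further T and NK genes, 0 met both, and of all genes tested 2.01% did.

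Against Control, the treated model group had 6 higher T and NK genes. In PZH + AOM/DSS against Control, 6 of 30 genes tested were higher, Cd28, Cd4, Icos, Gzma, Ccr7 and Cxcr6, and 0 lower, against 1.55% of the 15616 genes tested that were higher. Cd4 had the smallest adjusted p, with 5.49 ± 1.44 FPKM in the treated mice and 1.97 ± 0.355 in Control (SD, n = 5 each) and a change of 1.11 ± 0.18 (adjusted p = 0.0153). The others were Cxcr6 at 0.78 ± 0.15 (adjusted p = 0.028), Cd28 at 0.56 ± 0.12 (adjusted p = 0.0394), Icos at 0.89 ± 0.19 (adjusted p = 0.041), Ccr7 at 1.26 ± 0.27 (adjusted p = 0.0413) and Gzma at 1.16 ± 0.25 (adjusted p = 0.0418). At an unadjusted p under 0.05, 24 of the 30 were higher, where 12.9% of all genes were. The groups did not overlap in 8 of the 30, against 4.18% of all genes, and the median of the 30 was 0.68, against 0.059 over all genes. The count of called genes was 14 without Control mouse 37, 0 without Control mice 17 and 50, 1 without Control mouse 17, 48 or 50 or treated mouse 15, and 2 without Control mouse 41 or treated mouse 2 or 35. Over all genes tested, calls in both directions were 2.42% with all mice and 2.27% without Control mouse 37. They were 0.191% without Control mice 17 and 50. Without Control mouse 17, 48 or 50 they were 1.08%, 0.725% and 0.715%, and without treated mouse 15 they were 0.508%. Without Control mouse 41 or treated mouse 2 or 35 they were 1.08%, 0.851% and 1.04%.

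This comparison and AOM/DSS against Control share the Control mice, so the 2 are given side by side and not set against each other. Gzmb was 1.42 in AOM/DSS against Control and 1.06 in PZH + AOM/DSS against Control (adjusted p = 0.058), Lef1 2.12 and 1.11 (adjusted p = 0.16), and Itgae 0.87 and 0.58 (adjusted p = 0.126). Foxp3, Gata3 and Il2ra did not pass the filter in the second.

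Whether PZH acted differently with and without the model was tested as the interaction over all 20 mice. Of 34 genes tested limma called 0, as it did with voom weights, against 0.00590% of the 16936 genes tested that were higher and 0.00590% that were lower. At an unadjusted p under 0.05, Cd247 and Itgae were lower, at -0.55 ± 0.24 (adjusted p = 0.455) and -0.53 ± 0.25 (adjusted p = 0.484), where 6.92% of all genes were. The median of the 34 was -0.18, against -0.050 over all genes.

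Ratios within a mouse were taken to compare kinds of T cell apart from their total. The log2 ratio of Cd4 to Cd8a, with 0.1 FPKM added to each, was 2.27 ± 0.70 in Control and 2.05 ± 0.29 in PZH mice (SD, n = 5 each). With the model it was 2.2 ± 0.35 untreated and 2.36 ± 0.40 under PZH. The groups overlapped. Against Control, PZH differed by -0.22, AOM/DSS by -0.075 and PZH + AOM/DSS by 0.091, with two-sided exact permutation p of 0.50, 0.849 and 0.865. The treated model mice differed from the AOM/DSS mice by 0.17 (exact permutation p = 0.476). The log2 ratio of Foxp3 to Cd3e was -1.78 ± 1.71 in Control and -1.25 ± 0.89 in PZH mice, and with the model -0.93 ± 0.75 untreated and -1.62 ± 0.99 under PZH. Against Control, its differences were 0.53 for PZH, 0.85 for AOM/DSS and 0.16 for PZH + AOM/DSS, with two-sided exact permutation p of 0.548, 0.333 and 0.841, and the treated model mice differed from the AOM/DSS mice by -0.69 (exact permutation p = 0.246). With 1 FPKM added in place of 0.1, the Cd4 to Cd8a difference of PZH + AOM/DSS from Control was 0.55 (exact permutation p = 0.0159, adjusted p = 0.127). With 0.1 FPKM added, every p adjusted over the 8 tests was 0.865, and the smallest unadjusted p that 5 mice against 5 allow is 0.00794. Cd3e was at 0.046 FPKM in Control mouse 50 and 0.0483 in PZH mouse 14, and the Foxp3 ratio of these mice, at 0.27 and 0.25, was the highest of all 20.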

How the data were processed

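The deposited values were FPKM per transcript in 1 file per mouse, which the authors made by aligning reads with HISAT2 to the mouse genome (mm10, GRCm38) and assembling and quantifying transcripts with StringTie. The submitters' processing notes name limma. Strand use in counting is not given in the sources used here. FPKM of Ensembl transcripts were summed per gene with GENCODE M21 names (96032 of 118434 transcripts, 32991 genes). The 22252 transcripts assembled anew have no gene name and held a median of 13.2% of FPKM.

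The values are not counts, so limma 3.58.1 in R 4.3.3 was fitted with a mean trend to log2(FPKM + 1) of the 10 mice compared (all 20 for the interaction, where 5 or more of 20 mice had to reach 0.5 FPKM), with Benjamini-Hochberg adjustment over all genes tested. Depth was read from the step that 1 fragment makes in FPKM times transcript length. Between 39.7% and 44.6% of low values lay on whole steps (tolerance 0.02), so depth and fragments are estimates. Counts with a fold above 2 on the FPKM + 1 scale and an unadjusted p under 0.05 are given beside the calls. They differ from the study's criteria, which were set on transcripts with another tool, and the added 1 FPKM fails low genes whose FPKM differ more. On simulated data for AOM/DSS against Control, 61% of genes changed 2-fold and 86% of genes changed 4-fold were called (15578 genes). The changed genes were drawn from those with a Control mean of at least 1 FPKM, and these shares were not split by level. The shares therefore do not cover the members with lower Control means. Among such members were Cd3d at 0.642, Cd247 at 0.44, Gata3 at 0.188 and Foxp3 at 0.138 FPKM. Ratios were tested with exact two-sided permutation tests.

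The 39 genes, the lists and the genes named with values were chosen with earlier results of these data known. Values in every mouse are given for 14 chosen genes and for every member called in any comparison, and of other lists at most 4 members with the smallest p in AOM/DSS against Control are named. Replicates are single mice. No 2 libraries of a group held identical values over the genes compared. Alternatives were another scaling, filter, pseudocount and test, a model of all 20 mice, leaving out each mouse, and, chosen after seeing the data, leaving out the Control and PZH mice that stood apart and summing Trbc1 and Trbc2. RefSeq promoters and GENCODE transcripts gave the sequences. Promoters of 13 members were not used here. Single B cell genes are not named here.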

Additional observations from a re-analysis of the deposited data

Results flagged for a closer look

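Among the 39 genes in 4 groups of 5 mice, 21 of 164 sets of values (the 39 genes, and 2 ratios, in each group) had 1 mouse that lay farther from the others than Dixon's 95% limit allows. About 8.2 would be expected for independent sets of normally distributed values. These sets come from the same mice and FPKM values have a floor at 0, so the 2 counts cannot be compared as a test. Control mouse 37 was the mouse in 9 of them, high each time, at 1.46 FPKM of Cd3d, 3.7 of Cd3g, 3.03 of Trac, 2.39 of Lat, 1.47 of Cd6, 0.181 of Ifng, 0.661 of Il2ra, 1.36 of Cd8b1 and 2.18 of Tcf7. The same mouse was high in B cell genes, with a summed FPKM of 104, and their part in the T and NK values was not tested.

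In the PZH group, mouse 53 was high in the granzymes, at 3.78 FPKM of Gzma and 2.58 of Gzmb, and mouse 8 in Cd3d at 1.8 and Cd4 at 3.53. Mouse 27 was high in Ccr7, at 2.66. Mouse 14 was low in Icos, at 0.171, and was the one PZH mouse with any Ifng, at 0.051.

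In the PZH + AOM/DSS group, mouse 15 had 2.1 FPKM of Ifng, against 0.050 to 0.363 in the other 4. Mouse 35 was low in Cd3e, at 1.2 FPKM against 2.68 to 2.85, and high in Eomes, at 0.402. Mouse 13 was low in Trbc2, at 0.269, and high in Nkg7, at 2.99.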

How the results depend on the processing

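No paired analysis was possible because the groups were made of different mice. In AOM/DSS against Control the count of called genes was 18 to 24 of those tested under the 6 other scalings, filters, tests and models, and 15 to 27 without each mouse in turn, lowest without AOM/DSS mouse 33 and highest without Control mouse 37. It was 9 without Control mice 17 and 50 and 15 without Control mice 17, 37 and 50. In the same order, calls over all genes tested, in both directions, were 11.3% to 25.9%, 16.3% to 22.8%, 17.8% and 13.8%. With median-of-ratios scaling, 1965 of all genes were higher and 1596 lower, against 2596 and 1143 as reported, and 21 of the 39 were called. Of 502 refits of 29 single named genes in this comparison, 427 stayed on their side of the threshold, 70 lost the call, 5 gained it and 0 turned direction. In PZH + AOM/DSS against Control the 6 calls became 1 with no filter (more genes tested) and 15 with all 20 mice in one model. They ranged from 1 to 14 without each mouse in turn and were 0 without Control mice 17 and 50, where 13 of 30 genes had an unadjusted p under 0.05. Over all genes tested, calls in both directions were 2.42% as reported, 0.316% with no filter and 9.62% with all 20 mice in one model. They were 0.508% to 3.21% without each mouse in turn and 0.191% without Control mice 17 and 50. The cause of these shifts was not tested. The counts of 0 in the comparisons of PZH with Control and of the treated with the untreated model, and in the interaction, stayed at 0 under every alternative run, and no ratio passed after adjustment. The depth of 15.3 to 19.4 (in units of 1000000 fragments) leaves Ifng, Eomes, Prf1 and Tbx21 at few fragments. The intervals give the uncertainty of a difference between group means of 5 mice each.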
